A study of Mus musculus with 4 samples.

Results

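Transcripts of 9 chemokines, Ccl1, Ccl3, Ccl4, Ccl5, Ccl17, Ccl22, Xcl1, Cxcl2 and Cxcl10, were examined in lung ILC2s, the group 2 innate lymphoid cells, which reside in tissue, lack antigen receptors and secrete type 2 cytokines. They were taken by gene symbol from the authors' deposited table of 38697 genes, and all 9 were found there, 8 of them with an adjusted p-value. The study set KO mice against WT mice, all C57BL/6 and all treated with bleomycin, a drug that injures the lung. KO mice had the genotype R5/+Nrp1f/f and WT mice R5/+. Both groups carry R5, an Il5 allele that encodes a reporter and Cre recombinase, so the floxed Nrp1 gene is deleted only in cells that have expressed Il5. There were 2 KO and 2 WT samples of sorted cells, each a pool of 3 to 4 mice. No age, dose or time after bleomycin was taken from the labels.

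Chemokines are small secreted proteins that bind glycosaminoglycans and draw in leukocytes through G protein coupled receptors. They are classed as CC, CXC, XC and CX3C by the spacing of cysteines near the N terminus. In lymphocytes many of their transcripts are induced quickly through NF-kB, NFAT or interferon signalling and are short-lived. ILC2s respond to the alarmin IL-33, and a chemokine made by them could act on cells nearby or on the ILC2s themselves.

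The authors' deposited table gives one mean normalized count per gene over all libraries (baseMean) and one KO to WT comparison per gene. Its 8 columns of values per library carry codes that match no sample label, so values per pool, depth per library and the spread between pools were not analysed here. The table does not state which genotype is the numerator. Because WT comes first in its name, each log2 fold change was given the opposite sign here, so that a positive value means a higher level in KO. With that reading the deleted gene, Nrp1, had a log2 fold change of -1.18 ± 0.21 (SE, adjusted p = 0.000127) and a baseMean of 3771 per the authors' deposited table. Nrp1 thus stood at an implied mean of 2313 normalized counts in KO and 5229 in WT. Implied means were computed from baseMean and the fold change on the assumption that both genotypes weigh equally in baseMean. All 15 ILC2 markers were detected, from Il13 at 187 to Rora at 41644 in baseMean, according to the authors' deposited table. All 15 had a negative log2 value, and their summed levels are given below with those of other cells.

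None of the 9 chemokines passed the test between KO and WT. Cxcl2 and Ccl1 were abundant, Cxcl10 and Ccl5 intermediate, and Ccl4, Ccl3, Ccl22, Ccl17 and Xcl1 scarce. Of the 8 chemokines with an adjusted p, 0 passed the threshold of 0.05 in the authors' deposited table, where 0.552% of the 19193 genes tested passed, 0.453% as higher and 0.0990% as lower in KO. At an unadjusted p under 0.05 the count was also 0 of 8 as listed in the authors' deposited table, against 13.6% of genes tested. Adjusted p-values of the 8 ran between 0.422 and 0.925 per the authors' deposited table. Log2 values were positive for 4 of the 9 and negative for 5, with a median of -0.24. Over the 8 tested chemokines the median was 0.00, beside 0.08 over all genes tested. Over all genes 87 were higher and 19 lower in KO, or 225 higher and 2 lower when fold changes were shifted so that the median of abundant genes was 0.

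The 3 most abundant of the 9 are introduced with their promoters, read 5′ to 3′ on the gene's strand for 250 bases before the RefSeq start (GRCm38.p6, the mm10 build). Capitals mark matches to GGGANNNNCC, a simplified kappaB motif bound by NF-kB, or to GAAANNGAAA, a simplified interferon-stimulated response element, on either strand. They are shown because NF-kB and interferon signalling are known inducers of chemokine genes.
Cxcl2, chr5:90903649-90903898, plus strand: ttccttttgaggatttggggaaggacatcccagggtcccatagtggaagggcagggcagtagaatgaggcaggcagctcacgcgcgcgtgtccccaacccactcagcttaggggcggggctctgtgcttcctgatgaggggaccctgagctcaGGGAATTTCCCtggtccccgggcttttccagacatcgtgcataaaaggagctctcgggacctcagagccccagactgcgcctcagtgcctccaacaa
Ccl1, chr11:82179813-82180062, minus strand: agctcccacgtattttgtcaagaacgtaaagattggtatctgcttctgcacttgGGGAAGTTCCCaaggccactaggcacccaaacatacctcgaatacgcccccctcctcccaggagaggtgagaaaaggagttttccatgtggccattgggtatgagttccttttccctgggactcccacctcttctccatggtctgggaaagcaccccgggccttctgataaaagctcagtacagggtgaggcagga
Cxcl10, chr5:92348890-92349139, minus strand: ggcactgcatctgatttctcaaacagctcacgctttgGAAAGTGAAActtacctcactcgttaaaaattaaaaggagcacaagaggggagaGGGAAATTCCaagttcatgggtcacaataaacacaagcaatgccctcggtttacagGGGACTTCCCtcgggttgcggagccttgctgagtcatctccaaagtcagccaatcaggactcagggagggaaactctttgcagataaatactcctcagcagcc

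The Cxcl2 promoter held the kappaB letters on both strands in overlapping frames between bases -97 and -87 from the start. In the Ccl1 promoter they also lay on both strands, between bases -196 and -186. Cxcl10 had kappaB matches at bases -159 to -150 and -103 to -94, and its response element match GAAAGTGAAA lay at bases -213 to -204. RefSeq promoters were matched for 7 of the 9 genes. The kappaB letters were present in 4 of the 7 (Cxcl2, Ccl1, Cxcl10 and Ccl22), and 17.6% of 32851 promoters of the same length held them. GAAANNGAAA was present in 1 of the 7, Cxcl10, beside 2.98% of all promoters. A match describes the letters only.

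Cxcl2, a CXC chemokine that attracts neutrophils through Cxcr2, was the chemokine with the highest baseMean, at 12071 according to the authors' deposited table. Its implied means were 11063 normalized counts in KO and 13080 in WT. Per kb of exon that is 5350 in KO and 6325 in WT, and Cxcl2 ranked 88 by baseMean per kb among 20478 protein-coding genes. The log2 fold change was -0.24 ± 0.20 (SE, adjusted p = 0.623) as listed in the authors' deposited table. A 95% interval from that error runs from 0.647-fold to 1.11-fold, so a fall or rise of Cxcl2 beyond these bounds lies outside it. The 2480 abundant genes, those at 1000 or more in baseMean, had a median log2 value of -0.25. Once that median was set to 0, called centring here, Cxcl2 turned to 0.01. Of the 50-base windows in annotated Cxcl2 transcripts, 5.84% also occur in Cxcl3, a paralog on the same chromosome, so some reads of the 2 genes may not be told apart.

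Cxcl2 lies on chromosome 5 (90903871 to 90905938, mm10, plus strand), 10.8 kb beyond Cxcl1, which also binds Cxcr2. Cxcl1 stood at a baseMean of 1027 and a log2 fold change of 0.10 ± 0.23 (SE, adjusted p = 0.884) per the authors' deposited table. Cxcl3 stood at 0.02 ± 0.30 (SE, adjusted p = 0.984) at a baseMean of 579 according to the authors' deposited table. Per kb of exon the baseMean of Cxcl2 was 5837, beside 548 for Cxcl1 and 166 for Cxcl3. The receptor Cxcr2 was at 1.73 in baseMean, with no adjusted p as listed in the authors' deposited table, and at 0.568 per kb of exon.

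Ccl1, a CC chemokine and the ligand of Ccr8, had a baseMean of 8962 per the authors' deposited table, with implied means of 7943 in KO and 9981 in WT. Per kb of exon Ccl1 stood at 3353 in KO and 4213 in WT. Its log2 fold change was -0.33 ± 0.19 (SE, adjusted p = 0.440) according to the authors' deposited table, and the 95% interval runs from 0.616-fold to 1.03-fold. Centred on abundant genes, the log2 value of Ccl1 was -0.08, so its displacement was close to that of abundant genes as a whole. Whether Ccl1 or Cxcl2 stands higher per kb depends on the length used. GENCODE M21 gives Ccl1 a union of exons of 2369 bases over chromosome 11, 82176657 to 82305690 (mm10, minus strand), but a principal transcript of 514 bases. With principal transcripts, a length chosen after seeing the data, Ccl1 had 17436 and Cxcl2 10885 normalized counts per kb.

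Ccr8 was the most abundant receptor of the list, at a baseMean of 54346 as listed in the authors' deposited table, and ranked 5 per kb among protein-coding genes. The log2 fold change was -0.23 ± 0.15 (SE, adjusted p = 0.512) per the authors' deposited table. Ccl1 and its receptor were thus both among the abundant transcripts of these cells, and neither passed the test. Ccr8 turned to 0.03 when centred on abundant genes.

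Cxcl10, an interferon-induced CXC chemokine that acts on Cxcr3, had a baseMean of 1071 according to the authors' deposited table. Its implied means were 1163 in KO and 978 in WT, or 516 per kb of exon in KO and 434 in WT. The log2 fold change of Cxcl10 was 0.25 ± 0.22 (SE, adjusted p = 0.658) as listed in the authors' deposited table, with a 95% interval from 0.883-fold to 1.60-fold. It was the only one of the 3 chemokines with a baseMean of at least 1000 to have a positive value. In genes with a baseMean of 1000 to 5000, 6.52% had a positive log2 value and the median was -0.25. Centred on abundant genes, Cxcl10 stood at 0.50 (unadjusted p = 0.0223, adjusted p = 0.258), which does not pass, and its adjusted p ran between 0.258 and 0.911 over the settings tried. With centring, 2 of the 8 tested chemokines, Cxcl10 and Ccl4, were higher at an unadjusted p under 0.05 and 0 lower. Over all genes tested 13.3% were then higher and 0.203% lower. Its exons share 133 bases with Art3 on the opposite strand (baseMean 42.8 per the authors' deposited table), and the kits are not described as marking strand.

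Cxcl9 and Cxcl11, which share the receptor Cxcr3 and lie beside Cxcl10 on chromosome 5, were scarce. Cxcl9 stood at a baseMean of 11.2 and Cxcl11, annotated as a polymorphic pseudogene, at 8.85 according to the authors' deposited table. Their log2 values were 0.64 ± 1.64 (SE, adjusted p = 0.903) for Cxcl9 and 0.90 ± 1.63 (SE, adjusted p = 0.857) for Cxcl11 as listed in the authors' deposited table. Cxcr3 was at 2.87 in baseMean, with no adjusted p, per the authors' deposited table.

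**Figure D1:**
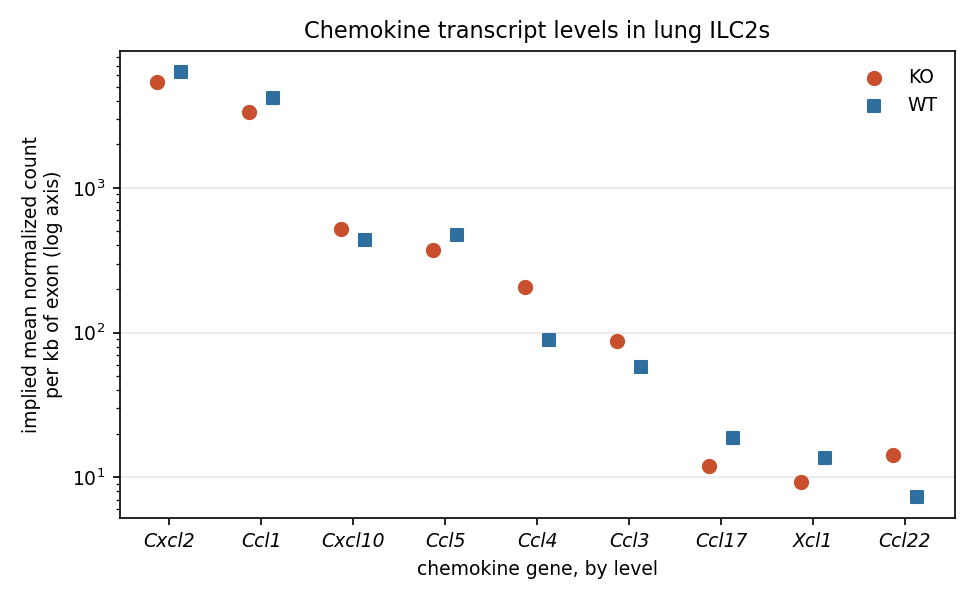
Implied mean normalized counts per kb of exon (log axis) for the 9 chemokines in KO (circles) and WT (squares), ordered by level. Cxcl2 and Ccl1 sit near 5837 and 3783 over both genotypes, and Ccl17, Xcl1 and Ccl22 lie at 15.3 or below, with KO and WT close to each other relative to this range. No error bars are drawn because values per pool were not used.

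Ccl5, Ccl3 and Ccl4 are CC chemokines typical of cytotoxic and activated lymphocytes and of macrophages. Ccl5 had a baseMean of 407 according to the authors' deposited table, with implied means of 359.7 in KO and 455 in WT. Its log2 fold change was -0.34 ± 0.34 (SE, adjusted p = 0.710) as listed in the authors' deposited table, and its 95% interval runs from 0.498-fold to 1.26-fold.

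Ccl4 had a baseMean of 97.3 per the authors' deposited table, with implied means of 136 in KO and 59.0 in WT. The log2 fold change of 1.20 ± 0.66 (SE, unadjusted p = 0.0709, adjusted p = 0.422) was the highest of the 9 according to the authors' deposited table and did not pass. The 95% interval of Ccl4 runs from 0.932-fold to 5.66-fold. Centred on abundant genes it was 1.45 (unadjusted p = 0.0289, adjusted p = 0.287), and it lay above the median of genes of like baseMean by 1.10 (unadjusted p = 0.0963). Its adjusted p was 0.287 or more in all settings tried.

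Ccl3, whose gene lies 13.2 kb from Ccl4 on chromosome 11 in the opposite orientation, had a baseMean of 55.7 as listed in the authors' deposited table. Its implied means were 67.0 in KO and 44.3 in WT. The log2 fold change of Ccl3 was 0.60 ± 0.70 (SE, adjusted p = 0.760) per the authors' deposited table, with a 95% interval from 0.583-fold to 3.92-fold. Genes with a baseMean of 50 to 100 had a median log2 value of 0.23 and 64.7% of them were positive, so a positive value at this level is common.

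Ccr1, a receptor of Ccl5 and Ccl3, did not pass the test either. It stood at a baseMean of 81.2 and a log2 fold change of -0.46 ± 0.62 (SE, adjusted p = 0.796) as listed in the authors' deposited table. Ccr3, the eotaxin receptor that Ccl5 also binds, had a baseMean of 12.8 per the authors' deposited table.

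Ccl22 and Ccl17 both bind Ccr4, the receptor found on type 2 helper and regulatory T cells. They lie on chromosome 8 on either side of Cx3cl1. Ccl22 had a baseMean of 25.1 according to the authors' deposited table, with implied means of 33.2 in KO and 17.1 in WT. Its log2 fold change was 0.96 ± 1.06 (SE, adjusted p = 0.742) as listed in the authors' deposited table, close to the median of 1.02 of genes of like baseMean. Ccl17 had a baseMean of 7.88 per the authors' deposited table, with implied means of 6.19 in KO and 9.56 in WT. The log2 fold change was -0.63 ± 1.93 (SE, adjusted p = 0.925) according to the authors' deposited table. Its 95% interval from 0.0472-fold to 8.87-fold spans changes of many-fold in either direction, so neither direction nor size of a Ccl17 difference was resolved. Their neighbour Cx3cl1, at a baseMean of 474, had a log2 fold change of 0.00 ± 0.26 (SE, adjusted p = 0.998) as listed in the authors' deposited table. Ccr4 was more abundant than its ligands, at a baseMean of 987 and 319 per kb of exon, and had a log2 fold change of -0.17 ± 0.23 (SE, adjusted p = 0.796) per the authors' deposited table. Per kb, Ccl17 and Ccl22 stood at 15.3 and 10.8.

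Xcl1, or lymphotactin, is the XC chemokine of NK and T cells and acts on Xcr1 of cross-presenting dendritic cells. It was the scarcest of the 9 by baseMean, at 5.97 according to the authors' deposited table, with implied means of 4.83 in KO and 7.11 in WT. Its log2 fold change was -0.56 ± 2.02 (SE, unadjusted p = 0.783) as listed in the authors' deposited table, and it has no adjusted p, the lowest baseMean with one being 6.71. Of the 50-base windows in annotated Xcl1 transcripts, 10.8% also occur in Gm20743, whose exons on the opposite strand share 98 bases with those of Xcl1. Gm20743 had a baseMean of 4.84 per the authors' deposited table, so reads of both genes may not be told apart. Its receptor Xcr1 was present at a baseMean of 467 and a log2 fold change of -0.12 ± 0.26 (SE, adjusted p = 0.881) per the authors' deposited table. Xcr1 was not on the list of 10 dendritic cell markers. Of that list Ccr7 and Zbtb46, named by rule, stood at 1410 and 769 in baseMean according to the authors' deposited table, both with negative log2 values. The others ran from Itgax at 67.9 down to Clec10a at 3.59, with Clec9a at 14.8, and these 3 were singled out after their values were seen. Log2 values were positive for 7 of the 10.

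**Figure D2:**
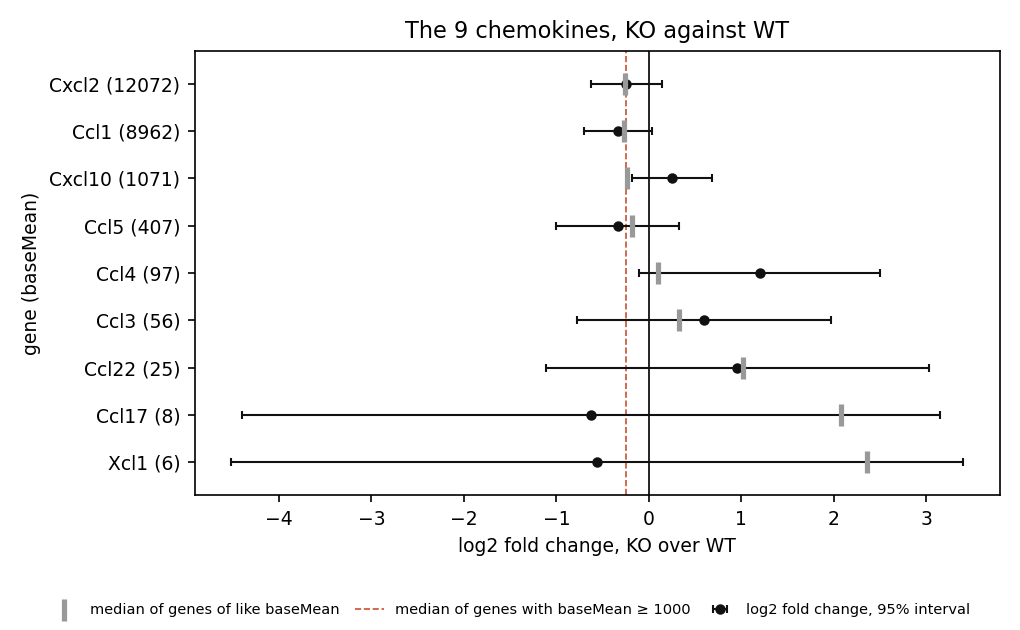
Log2 fold change of KO over WT (points) with 95% intervals from the authors' errors (bars) for the 9 chemokines, ordered by baseMean, which stands in brackets. Grey ticks mark the median of genes of like baseMean and the dashed line the median of abundant genes. Every interval spans 0, and the intervals of the scarce chemokines Ccl17 and Xcl1 are the widest.

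Per kb of exon, the order of baseMean was Cxcl2, Ccl1, Cxcl10, Ccl5, Ccl4, Ccl3, Ccl17, Xcl1 and Ccl22. Cxcl2 and Ccl1 together made up 89.3% of the summed level per kb of the 9. The steps between Cxcl10 and Ccl5, at 475 and 424, and among Ccl17, Xcl1 and Ccl22, at 15.3, 11.4 and 10.8, were small. In KO the implied level of Ccl5 was below that of Cxcl10, at 375 and 516, and in WT above it, at 473 and 434. The spread between pools was not available, so whether these neighbours differ was not tested. For scale, Il5 had 4406 and Areg 11556 normalized counts per kb, and Il13 had 155. Summed per kb, the 9 chemokines stood at 9922 in KO and 11633 in WT, most of it Cxcl2 and Ccl1.

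The size of the error, and the usual sign of the log2 value, followed abundance. Genes with a baseMean of 5 to 10 had a median log2 value of 2.18, and 90.3% of them were positive. Ccl17, in that range, had a negative value, as did Xcl1, and both lay below the median of genes of like baseMean, by 2.71 for Ccl17 (unadjusted p = 0.160) and 2.92 for Xcl1 (unadjusted p = 0.148). Genes with a baseMean of 5000 to 20000 had a median of -0.27, and 7.90% were positive. Cxcl2 and Ccl1 lay within 0.07 of the median of genes of like baseMean. After that median was subtracted, 4 of the 9 chemokines were above 0, with a median of -0.06.

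**Figure D3:**
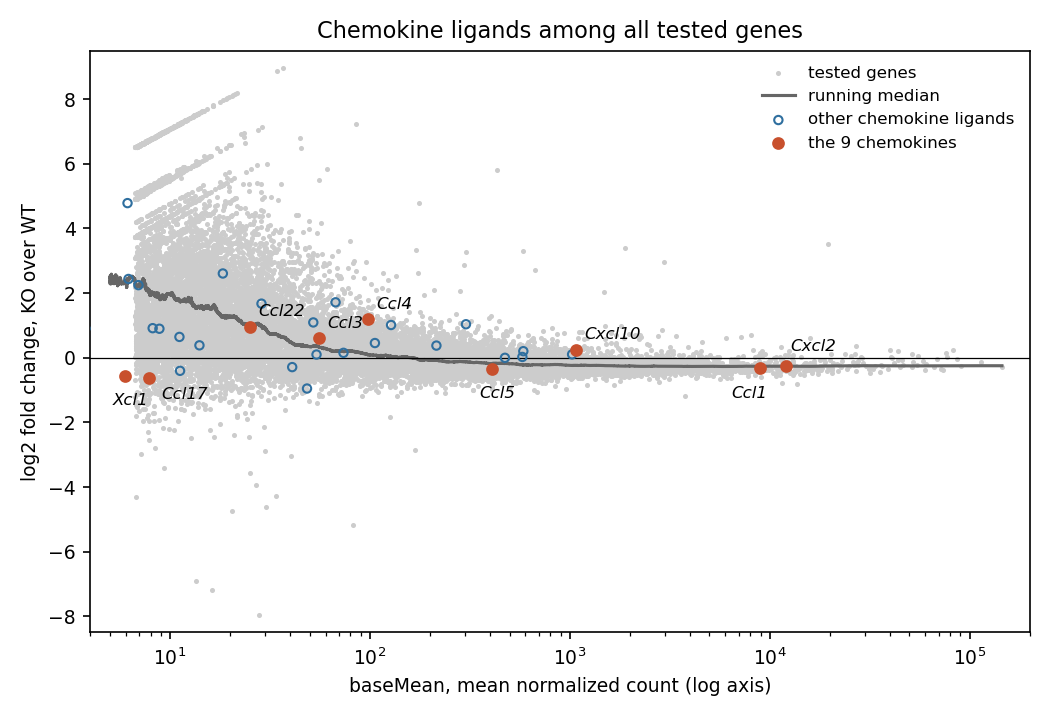
Log2 fold change of KO over WT against baseMean (log axis) for all tested genes (grey), the running median over 500 genes (line), other chemokine ligands (open circles) and the 9 chemokines (filled, named). The running median falls with baseMean, near 2.36 at the level of Xcl1 and near -0.26 at that of Cxcl2, and the 9 chemokines show no common displacement from it.

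Per kb of exon, none of the other chemokine ligands with a known exon length stood above Cxcl1, at 548. Of 32 further ligand symbols, 28 were found and 22 had an adjusted p, of which 0 passed in either direction per the authors' deposited table. Over all genes tested 0.552% passed. At an unadjusted p under 0.05, 3 were higher and 0 lower in KO according to the authors' deposited table, against 9.62% higher and 3.95% lower over all genes tested. The 3 were Cxcl12, Ccl2 and Cxcl17. Cxcl12, a ligand of Cxcr4 made largely by stromal cells, stood at a baseMean of 303 and a log2 fold change of 1.04 ± 0.42 (SE, adjusted p = 0.209) as listed in the authors' deposited table. Ccl2, which attracts monocytes through Ccr2, stood at 67.4 and 1.72 ± 0.77 (SE, adjusted p = 0.277) per the authors' deposited table. Cxcl17, a mucosal epithelial chemokine, stood at 18.4 and 2.61 ± 1.31 (SE, adjusted p = 0.359) according to the authors' deposited table. Ccl6, at a baseMean of 586, had a log2 fold change of 0.20 ± 0.37 (SE, adjusted p = 0.857) as listed in the authors' deposited table. The median log2 of the 22 was 0.42, and 18 were positive (81.8%), against 54.0% of all genes tested. After subtraction of the median of genes of like baseMean, 12 of the 22 were above 0, with a median of 0.21.

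Among the 10 receptors of the 9 chemokines, 8 had an adjusted p and 0 passed in either direction per the authors' deposited table. Over all genes tested 0.552% passed. At an unadjusted p under 0.05 the count was also 0 of 8, against 13.6% of genes tested. The median log2 of the receptors was -0.15, beside 0.08 over all genes tested. Ccr8 made up most of their summed level per kb. The decoy receptors Ackr2 and Ackr1, which bind chemokines without G protein signalling, had a baseMean of 54.6 and 15.2 according to the authors' deposited table.

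Genes that induce or restrain chemokine transcripts were mostly abundant, and none passed the test, where 0.552% of all genes tested did. All 23 had an adjusted p, of which 0 passed, while 5 were lower and 0 higher at an unadjusted p under 0.05 as listed in the authors' deposited table, beside 3.95% lower and 9.62% higher over all genes tested. The 5 were Tnfaip3, Rel, Il1rl1, Il4ra and Stat6. Their median log2 was -0.28, and 19 of 23 were negative, against 46.0% of all genes tested. After centring on abundant genes, 8 of the 23 were above 0 and the median was -0.03. At an unadjusted p under 0.05, 0 were then lower and 3 higher (Zfp36, Irf1 and Zc3h12a), beside 0.203% lower and 13.3% higher over all genes tested.

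Tnfaip3 encodes A20, an inhibitor of NF-kB, and stood at the highest baseMean of the list, 145192, with a log2 fold change of -0.28 ± 0.13 (SE, adjusted p = 0.307) per the authors' deposited table. The NF-kB inhibitor Nfkbia, at 76967, had 0.01 ± 0.14 (SE, adjusted p = 0.987) according to the authors' deposited table. Il1rl1, the IL-33 receptor chain upstream of NF-kB, had -0.42 ± 0.14 (SE, adjusted p = 0.118) as listed in the authors' deposited table. Il4ra and Stat6, which carry the IL-4 and IL-13 signal that induces Ccl17 and Ccl22 in myeloid cells, had -0.46 ± 0.16 (SE, adjusted p = 0.124) and -0.42 ± 0.15 (SE, adjusted p = 0.147) per the authors' deposited table.

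Zfp36 encodes tristetraprolin, which binds AU-rich elements and speeds decay of many cytokine and chemokine transcripts. Zfp36 stood at a baseMean of 39990 and a log2 fold change of 0.25 ± 0.14 (SE, adjusted p = 0.422) according to the authors' deposited table. Centred on abundant genes it was 0.50 and passed (adjusted p = 0.0358), the 1 of 23 to do so. In that setting 227 of the 19193 genes tested passed, 225 as higher and 2 as lower in KO. In the other settings its adjusted p ran between 0.156 and 0.651, and with the median of genes of like baseMean subtracted 0 of the 23 passed. Irf1, an interferon-induced activator of Cxcl10, had 0.34 ± 0.18 (SE, adjusted p = 0.401) as listed in the authors' deposited table. Ifngr1, a chain of the interferon-gamma receptor, had -0.37 ± 0.20 (SE, adjusted p = 0.416) per the authors' deposited table.

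**Figure D4:**
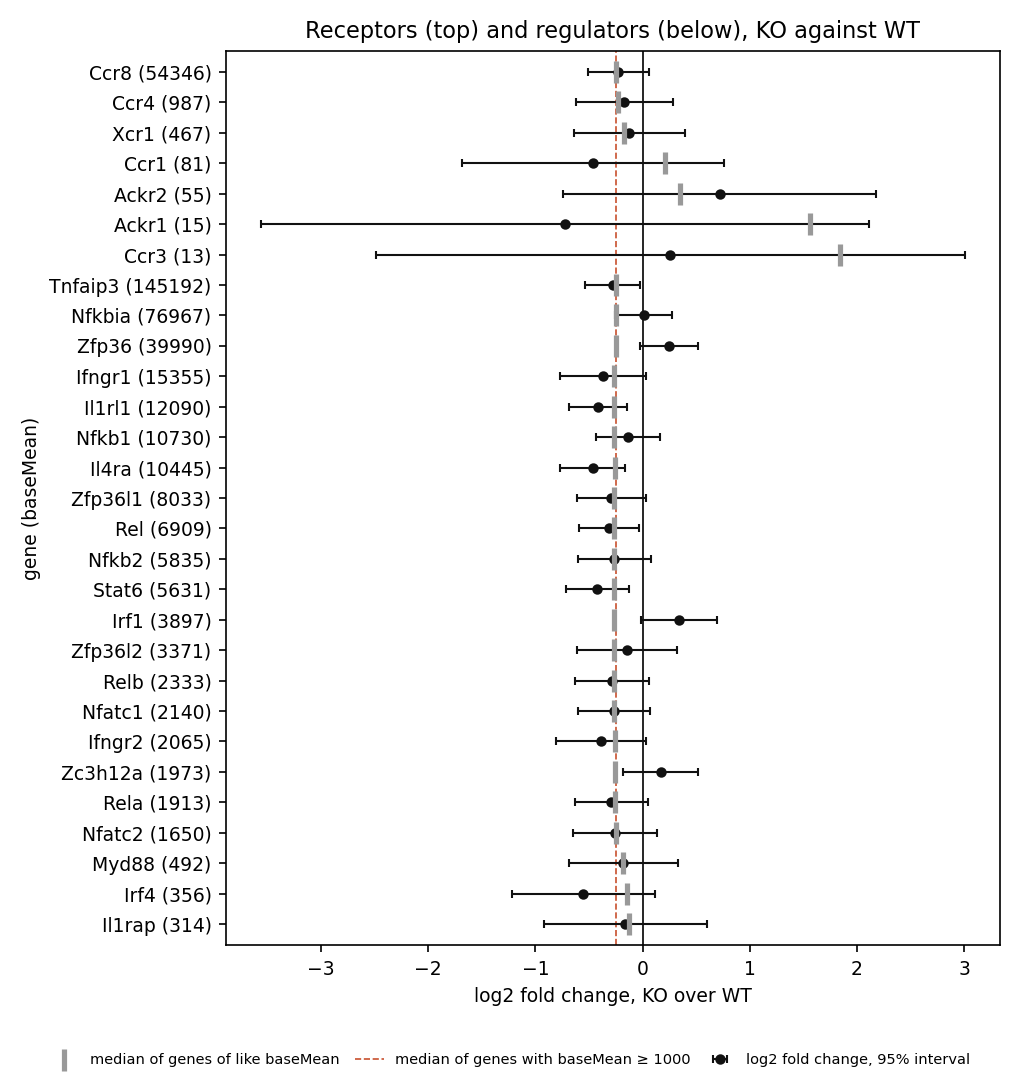
Log2 fold change of KO over WT with 95% intervals for tested receptors of the 9 chemokines (top) and inducers and regulators (below), each ordered by baseMean, which stands in brackets. Grey ticks and the dashed line are the medians of genes of like baseMean and of abundant genes. Most regulators lie near the dashed line at -0.25, with the points of Zfp36, Irf1 and Zc3h12a to the right of 0 and their intervals spanning it.

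Several of these chemokines are also made by other cells of the lung, so markers of those cells are given as summed implied normalized counts per kb of exon. By the same measure the 15 ILC2 markers summed to 43224.5 in KO and 52665.6 in WT. Their median log2 was -0.34, beside -0.25 for abundant genes, and 0 of the 15 passed the test. At an unadjusted p under 0.05, 8 of them were lower and 0 higher, beside 3.95% lower and 9.62% higher over all genes tested. After centring, 5 of the 15 were above 0 and both counts were 0, beside 0.203% lower and 13.3% higher over all genes tested. The 9 markers of NK cells and ILC1 summed to 58.4 in KO and 24.3 in WT, and 6 of them, Ncr1, Eomes and Tbx21 included, had a baseMean under 10. Only 4 had an adjusted p, and 0 passed. All 9 had a positive log2 value, as did 90.3% of genes with a baseMean of 5 to 10. With the median of genes of like baseMean subtracted, 4 of the 9 were above 0, with a median of -0.44. Ccl5 stood at 375 in KO and 473 in WT per kb. The part of NK cells and ILC1 in that value was not tested. The 11 T cell markers summed to 7463 in KO and 9936 in WT, led by Trbc1 and Trbc2. Lat stood at a baseMean of 1837, Cd3g at 963 and Trac at 114, while Cd4, Cd8a, Cd8b1 and Cd3d were each under 20. Of the 10 T cell markers with an adjusted p, 8 had a negative log2 value, against 46.0% of all genes tested, and 2, Cd4 and Cd8b1, a positive one. At an unadjusted p under 0.05, 3 were lower and 0 higher, beside 3.95% lower and 9.62% higher over all genes tested. After centring these counts were 1 and 0, beside 0.203% and 13.3%. Of the T cell list, Cd3g passed as lower in the authors' deposited table, at -0.96 ± 0.24 (SE, adjusted p = 0.0292). This call was lost when adjusting over every gene (adjusted p = 0.0588), with centring (log2 -0.71, adjusted p = 0.103) and with the median of genes of like baseMean subtracted (log2 -0.73, adjusted p = 0.376). The 14 macrophage and monocyte markers summed to 8427 in KO and 7499 in WT, led by Lyz2 at a baseMean of 8981 and Chil3 at 773, while Marco was at 13.8 and Itgam at 4.88. All 12 macrophage markers with an adjusted p had a positive log2 value, against 54.0% of all genes tested, and 0 passed in the authors' deposited table. With the median of genes of like baseMean subtracted, 9 of the 12 were above 0, with a median of 0.34. The 10 dendritic cell markers summed to 762 in KO and 938 in WT. Ccr7 and Zbtb46, both with negative log2 values, made up most of that sum, while 7 of the 10 had positive values and 0 passed in either direction. Of the 8 dendritic cell markers with an adjusted p, 6 were positive (75%), against 54.0% of all genes tested. With the median of genes of like baseMean subtracted, 3 of these 8 were above 0. The 8 neutrophil markers summed to 150.4 in KO and 205 in WT, with 4 positive and 4 negative log2 values, 0 past the test and Ly6g at 0.371 in baseMean. Of these, Mmp9 and S100a9 stood at 15.7 and 50.8 per kb in KO and 55.6 and 81.1 per kb in WT. Mast cells, basophils and eosinophils (9 markers) gave 398 in KO and 367 in WT, with Epx and Prg2 under 10 in baseMean. By baseMean the list was led by Cpa3 at 413 and Hdc at 396. Their log2 values were 0.22 ± 0.34 (SE, adjusted p = 0.832) for Cpa3 and -0.48 ± 0.33 (SE, adjusted p = 0.548) for Hdc in the authors' deposited table.

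Markers of non-immune cells and of B cells had larger summed levels in KO, with 0 of their 28 members passing the test. Of the 28, 25 had a positive log2 value (89.3%), against 54.0% of all genes tested. With the median of genes of like baseMean subtracted, 27 were above 0, with a median of 0.74. At an unadjusted p under 0.05, 4 were higher and 0 lower, beside 9.62% higher and 3.95% lower over all genes tested. After centring these counts were 8 and 0, beside 13.3% and 0.203%. Lung epithelial markers (8) summed to 13977 in KO and 7164 in WT, and fibroblast markers (7) to 850.4 in KO and 488 in WT. The epithelial sum was led by Sftpc, at 7038 per kb in KO and 4629 in WT, and Scgb1a1, at 5024 and 1220. Their errors were large, with log2 values of 0.60 ± 1.44 (SE) and 2.04 ± 1.00 (SE). Of the 8, 7 had a positive log2 value, with Krt8 at 1.41 ± 0.56 (SE), Epcam at 0.11 ± 0.34 (SE) and Cdh1 at -0.03 ± 0.33 (SE). Endothelial markers (7) summed to 659 in KO and 522 in WT, and B and plasma cell markers (6) to 388 in KO and 285 in WT. The part of these cells in the values of Ccl2, Cxcl12, Cxcl17, Ccl3, Ccl4, Ccl22 or Cxcl10 was not tested. In these bulk samples fewer cells of a type and less RNA per cell cannot be told apart.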

How the data were processed

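Lung ILC2s were sorted, and per the labels' protocols each sample was a pool of 3 to 4 mice. The SMART-Seq HT kit gave full-length cDNA and a TruePrep kit the libraries. The submitters' processing notes name HISAT2, Cufflinks and mm10 but give them no role. How reads were counted, on which annotation and with which filters is not given in the sources used here.

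Per the file headers, the authors deposited for each gene a mean normalized count over the libraries (baseMean, a signal), a log2 fold change and its standard error on the log2 scale, a score (the test statistic) and p-values before and after adjustment. Its headings match those that DESeq2 gives a table of results, per the file headers. A further 8 columns of values per library match no sample label and were not used, so the planned refit on values per library gave way to the authors' test. Nothing in the labels says that pools share a day or litter. The deposited adjusted p was recomputed by the Benjamini-Hochberg method over the 19193 genes that have one, all with a baseMean of 6.71 or more, and the values agreed to 3.96e-05 or better.

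Computed here, with Python 3.11.15, numpy 2.4.6, pandas 2.3.3 and scipy 1.17.1, were 95% intervals (fold change ± normal quantile times the error), implied genotype means, levels per kb over GENCODE M21 exons (38388 genes matched), centring, and a running median over 500 genes ordered by baseMean. The adjustment and centring were tested on simulated data. Where a symbol had more than 1 row, the row with the higher baseMean was used. All 9 chemokines and Nrp1 were named. Of the other ligands, receptors and regulators, the rule named those past the test and the 4 of each with the highest baseMean. Of each marker list it named the 2 with the highest baseMean. For the lists of ILC2s, of NK cells and ILC1, and of non-immune and B cells, this was not followed throughout. Other genes named, such as Cd3g, those with an unadjusted p under 0.05, cluster neighbours, remaining receptors and scarce markers, were singled out after their values were seen. The members and lists were chosen with earlier results of these data known. A pair of list members is not reported here by value or drawn, and the counts and medians of their lists include them.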

Additional observations from a re-analysis of the deposited data

How the results depend on the processing

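No paired analysis was possible because the columns of values per library match no sample label, and for the same reason the count-based refit and the fits leaving out each replicate were not run. The counts of chemokines, other ligands and receptors past the test stayed at 0 in each of 6 settings: adjusting over every gene, over those at 50 or more in baseMean or over protein-coding ones, a threshold of 0.1, centring, and removing the abundance trend, the last chosen after seeing the data for these counts. Regulators past the test numbered 1 with centring (Zfp36) and 0 in the other settings. Over all genes 106 passed, 87 higher and 19 lower, against 23 (21 higher, 2 lower) when adjusting over every gene, 35 (22 and 13) over those at 50 or more, 56 (39 and 17) over protein-coding ones, 306 (266 and 40) at a threshold of 0.1, 227 (225 and 2) with centring and 21 (19 and 2) with the trend removed. By construction the first 3 settings adjust over other numbers of genes and centring raises every log2 value by 0.25. The cause was not tested further.

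The median log2 of the 9 chemokines was -0.24, against 0.010 with centring, -0.062 with the trend removed and 0.0039 over the 6 with a baseMean of at least 50. Only centring and removing the trend move a log2 value. Under these, 11 of 46 comparisons over 23 named genes turned direction. With centring, Cxcl2 turned to 0.010, Cx3cl1 to 0.25, Ccr8 to 0.025, Ccr4 to 0.079 and Xcr1 to 0.13. With the trend removed, Cxcl2 turned to 0.020, Ccl22 to -0.062, Cx3cl1 to 0.17, Ccr8 to 0.026, Ccr4 to 0.057 and Xcr1 to 0.049. None of these passed in any setting. Among the 23, the call of Zfp36 was gained with centring, and that of Cd3g was lost when adjusting over every gene, with centring and with the trend removed. Ccl1, Cxcl10, Ccl5, Ccl4, Ccl3, Ccl17 and Xcl1 kept their direction in the settings run. Depth per library was not analysed here. Precision followed baseMean, and genes with a baseMean of 5 to 10 have intervals of about 4.13 log2 units on either side, against 0.31 at a baseMean of 5000 to 20000.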
